A study of Mus musculus with 8 samples.

Results

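Cytochrome P450 genes were read out in 8 bulk RNA-seq libraries from lung cells sorted by protease activity. The genes were all rows of the raw count table whose mouse symbol is Cyp followed by a family number, a subfamily letter and a gene number, which gave 94 genes of the 27179 listed. Of these, 71 had at least 1 count in some library and 23 had none in any library. Another 10 rows carry a Cyp symbol of a different form, among them Cyp51, Cyp4a12a and several pseudogenes, and were left out of the set.

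The mice were C57BL/6 Eml4-Alk animals, in which an adenovirus given into the lungs, carrying Cas9 and guide RNAs, had joined Eml4 to Alk, so that both populations come from tumor-bearing lungs. No library of healthy lung was analysed here. They were 18 to 22 weeks old and 11 to 12 weeks past tumor induction, received 4.5 nmol of QZ1-(PEG2K) intravenously, and were killed 2 h later. QZ1 is a quenched peptide probe whose Cy5 signal appears, and stays on nearby cells, when proteases cut its linker. Live cells negative for CD45 and CD11b, and so depleted of blood-derived cells, were divided by that signal, gated against EpCAM, into QZ1-hi and QZ1-lo populations, with 4 libraries of each. The labels do not tie a library to an animal, and the library numbers used here only name libraries. P-values therefore measure the spread between libraries of a population, which may be partly technical.

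Cytochrome P450 enzymes are heme proteins that insert an oxygen atom into small, mostly fat-soluble molecules, using electrons passed on by a reductase. Some families act on drugs, smoke constituents and other foreign compounds, and others make or clear steroids, bile acids, retinoic acid, vitamin D or fatty acid signals. In the mouse lung the best known site is the club cell of the conducting airways, a secretory cell rich in smooth endoplasmic reticulum and in Cyp2f2, the enzyme that turns naphthalene into the product that injures those cells.

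Library totals ran from 18380918 to 26847938 counts, of which the P450 genes took between 4755 and 9525 in QZ1-hi and between 12847 and 22636 in QZ1-lo. Levels are given as CPM, counts scaled to a library of 1e6, after TMM scaling in edgeR, and a level of 3 counts, taken as the floor, was worth 0.0894 to 0.179 CPM. Floors and counting intervals cover counting error only, since the reads carry no molecular identifiers. Mitochondrial and structural RNA took 44.3% to 65.9% of the counts in QZ1-hi and 34.5% to 53.6% in QZ1-lo, and with 45 such genes removed the test called 6 P450 genes higher and 6 lower, the same 12 genes as with them. The sorted populations differed in cell type markers. All 6 endothelial and all 5 fibroblast markers were called higher in QZ1-hi, while 4 of 4 general epithelial, 5 of 5 ciliated and 4 of 5 club cell markers were called lower. Of the other lists, 1 of 5 alveolar type 2 markers was higher, 1 of 5 alveolar type 1 markers was higher and 4 were lower, 2 of 5 pericyte and 3 of 3 mesothelial markers were higher, 1 of 4 smooth muscle markers was higher and 1 lower, and none of 6 immune markers was called.

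Of the 94 P450 genes, 32 passed the filter on low counts and were tested among 15583 genes. In QZ1-hi, 6 were higher at an edgeR adjusted p under 0.05, which is 18.8% of the 32 beside 9.88% of all genes tested. These were Cyp7b1, Cyp2j9, Cyp2d22, Cyp27a1, Cyp1b1 and Cyp20a1. Another 6 were lower, again 18.8%, beside 8.21% of all genes tested, namely Cyp2a5, Cyp2f2, Cyp2b10, Cyp2s1, Cyp4f39 and Cyp4f17. The median log2 fold change of the 32 (QZ1-hi minus QZ1-lo) was −0.21, and that of all genes tested was 0.02. Because a gene that is high in 1 population passes the filter more easily than one low in both, these counts describe the 32 and not the whole family. Leaving out QZ1-hi library 2 or 3 left 3 genes called higher. Scaling by library size alone, which moves the median of all genes to −0.44, gave 6 higher and 11 lower. Over all 15583 genes that scaling called 882 higher and 2509 lower, in place of 1540 and 1280. DESeq2 called the same 12 genes and, as lower, Cyp2a4, Cyp2b13 and Cyp3a13.

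**Figure D1:**
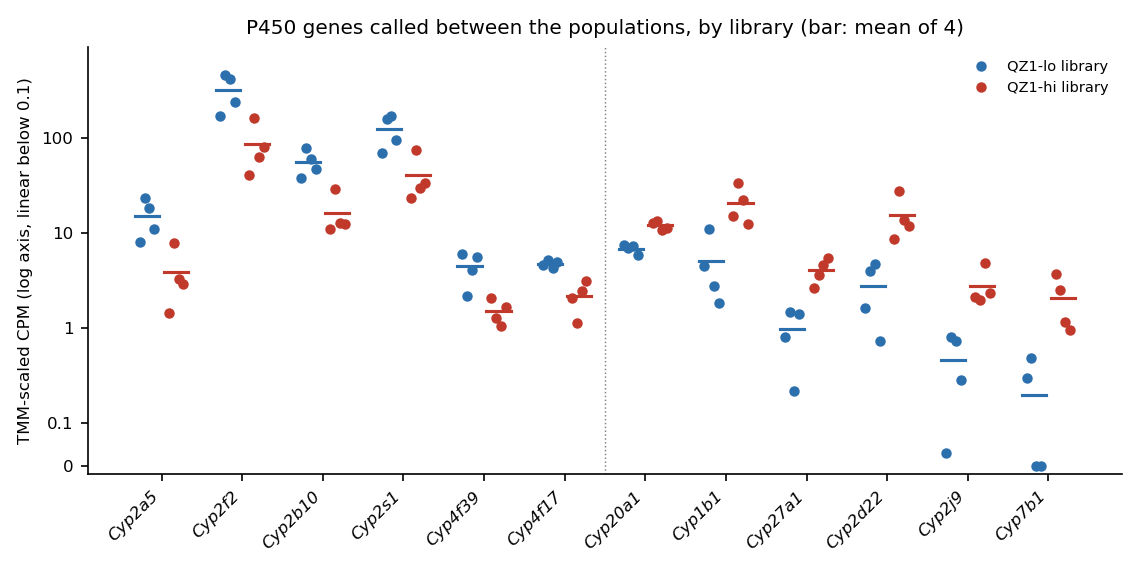
TMM-scaled CPM (log axis, linear below 0.1) of the 12 called P450 genes in each of the 4 QZ1-lo (blue) and 4 QZ1-hi (red) libraries, with a bar at each mean. The populations do not overlap for 11 of the 12 genes, the exception being Cyp2s1, and Cyp2f2 stands highest in both.

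By separation of the libraries alone, the 4 QZ1-hi values lay above all 4 QZ1-lo values for 6 of the 32 genes, beside 11.9% of all genes tested, and these were the 6 called higher. They lay below for 9 genes, beside 10.7% of all genes tested, the uncalled ones being Cyp2b13, Cyp2b19, Cyp2t4 and Cyp3a13. A gene with no overlap has a two-sided exact permutation p of 0.0286, the smallest that 4 against 4 libraries allow.

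The most abundant P450 gene was Cyp2f2 (Entrez Gene 13107, chr7:27119909-27133660 on the plus strand, GENCODE M21 on GRCm38, which is mm10, the build named in the labels). Its level was 40.9, 162, 63.4 and 79.1 CPM in QZ1-hi libraries 1 to 4 and 169.7, 459, 414 and 240.5 CPM in QZ1-lo libraries 1 to 4. The highest QZ1-hi library thus stayed just under the lowest QZ1-lo library. The means were 86.4 ± 53.0 CPM (SD, n = 4) and 321 ± 138 CPM (SD, n = 4), and the fitted level was 3.71-fold higher in QZ1-lo (log2 fold change −1.89, SE 0.42, edgeR adjusted p = 0.0087). The annotated antisense transcript Gm15883 overlaps 274 exonic bases of the gene, and the strand setting of the counting is not given in the sources used here.

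Cyp2b10 (Entrez Gene 13088, chr7:25897620-25926624, plus strand), a broad drug-oxidizing enzyme best known from the phenobarbital response of liver, was the next gene per kilobase of exon over all 8 libraries. It measured 11.0, 29.2, 12.7 and 12.5 CPM in QZ1-hi and 37.5, 77.5, 59.6 and 46.8 CPM in QZ1-lo. Every QZ1-lo library was above every QZ1-hi library, and QZ1-hi library 2 was again the highest of its population. The log2 fold change was −1.76 (SE 0.33, edgeR adjusted p = 0.00335), and the call held under all 17 alternatives, as did that of Cyp2f2.

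Cyp2a5 (Entrez Gene 13087, chr7:26835305-26843548, plus strand), a coumarin and nicotine oxidizing enzyme, measured 1.44, 7.90, 3.30 and 2.92 CPM in QZ1-hi and 8.05, 23.2, 18.3 and 11.1 CPM in QZ1-lo. Its populations were separated only narrowly, between QZ1-hi library 2 and QZ1-lo library 1. On the log2 scale the difference was −1.96 (SE 0.48, edgeR adjusted p = 0.0158), and without QZ1-lo library 2 the adjusted p was 0.0510. Its near copy Cyp2a4 (Entrez Gene 13086, chr7:26307169-26315088, plus strand), a testosterone hydroxylase, had 1.71 ± 1.17 CPM in QZ1-hi and 5.11 ± 1.90 CPM in QZ1-lo (SD, n = 4 each) with an edgeR adjusted p of 0.0517. It was called lower under 7 of the 17 alternatives, among them DESeq2 (adjusted p = 0.0135), no filter (0.0459), library-size scaling (0.00288) and the omission of QZ1-hi library 2 (0.0142) or QZ1-lo library 1 (0.0426). Of the stretches of 50 exonic bases, 37.0% of those of Cyp2a5 and 38.8% of those of Cyp2a4 occur in another gene as well, so the counting could have split their reads either way and the 2 levels are uncertain.

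Cyp2s1 (Entrez Gene 74134, chr7:25802475-25816913, minus strand), an epithelial P450 of skin and airways that acts on retinoids and prostaglandin-like peroxides, measured 23.4, 74.3, 29.7 and 33.3 CPM in QZ1-hi and 68.5, 158, 169.0 and 94.3 CPM in QZ1-lo. QZ1-hi library 2 passed QZ1-lo library 1, so the populations overlapped (exact permutation test, two-sided p = 0.0571). The fit called the gene, with a log2 fold change of −1.61 (SE 0.38, edgeR adjusted p = 0.0121). An antisense transcript, Gm26707, overlaps 260 of its exonic bases.

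These genes stand in a single cluster of chromosome 7 (chr7:25802475-27158668), which holds 13 of the 94 genes along 1356 kb. Of the 13, 12 were counted and 9 were tested. All 9 fitted log2 fold changes were below 0, from −1.96 to −0.92. Of the 9, 4 were called lower and none higher, beside 8.21% and 9.88% of all genes tested. A gene low in QZ1-hi could pass the filter through QZ1-lo. Cyp2b19, for example, had 1, 5, 9 and 4 counts in QZ1-hi and 24, 24, 20 and 20 in QZ1-lo. The sign of such a gene follows in part from the filter. Besides Cyp2a4, the uncalled ones of the 9 were Cyp2b13, Cyp2b19, Cyp2b9 and Cyp2t4, none of which exceeded 2.39 CPM in any library. Of the exonic stretches of 50 bases, 27.3% of those of Cyp2b13, 11.2% of Cyp2b9 and 8.70% of Cyp2b10 occur in another gene as well. The 9 levels are therefore not fully separate readings. Cyp2b13 had 0.482 ± 0.186 CPM in QZ1-hi and 1.56 ± 0.709 CPM in QZ1-lo (SD, n = 4 each, edgeR adjusted p = 0.0916), and was called with DESeq2 (adjusted p = 0.0352) and library-size scaling (0.0394). Cyp2g1, the olfactory P450, had 10 counts over the QZ1-hi and 32 over the QZ1-lo libraries, Cyp2b23 had 15 and 28, Cyp2a12 had 0 and 1, and Cyp2a22 had none.

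**Figure D2:**
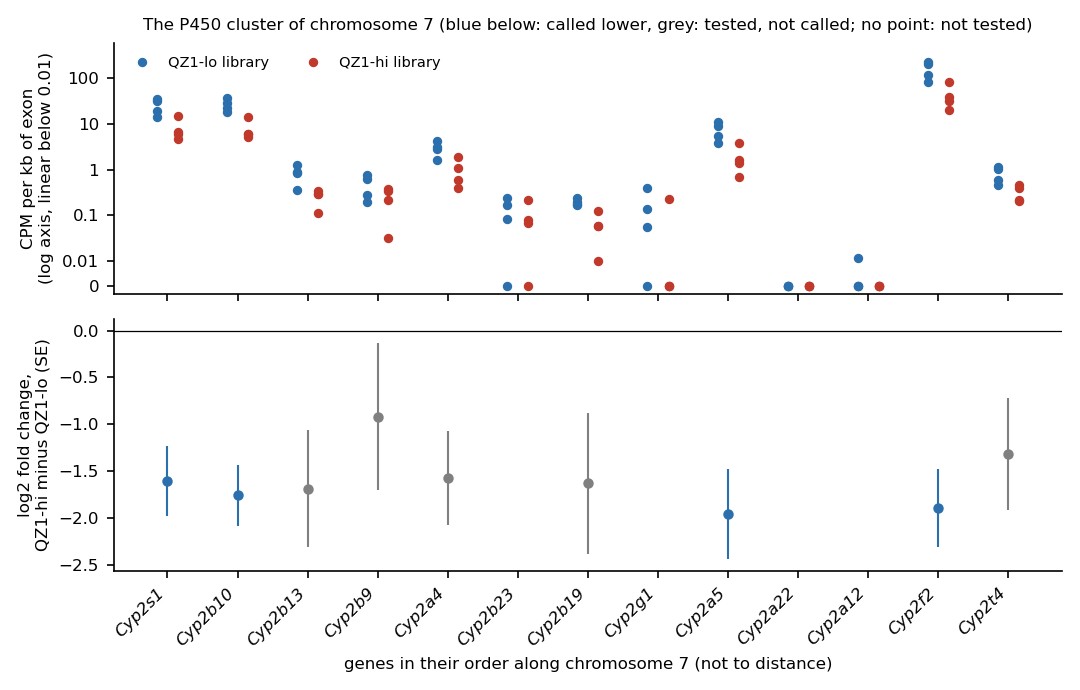
The 13 P450 genes of the chromosome 7 cluster in their order along the chromosome, with the level per kilobase of exon in each library above (CPM per kb, log axis, linear below 0.01) and the log2 fold change with its SE below. Cyp2f2 is the highest gene of the cluster, and all 9 tested genes lie below 0.

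The bases before the starts of these genes are shown because these genes share a cluster and the sign of their fitted difference. Each line gives the 150 bases before the RefSeq start (RefSeq promoters, GRCm38.p6), 5′ to 3′ on the strand of the gene. The windows lie at chr7:27119805-27119954 for Cyp2f2, chr7:25897508-25897657 for Cyp2b10, chr7:26835189-26835338 for Cyp2a5, chr7:26307042-26307191 for Cyp2a4 and chr7:25816526-25816675 (minus strand) for Cyp2s1. Capitals mark 4 searched motifs on either strand: GCGTG, the core letters of the aryl hydrocarbon receptor with Arnt, TATAAA, the TATA box, TTGCATAA, letters like those bound by C/EBP factors, and TGTTTAC, a forkhead motif.
Cyp2f2: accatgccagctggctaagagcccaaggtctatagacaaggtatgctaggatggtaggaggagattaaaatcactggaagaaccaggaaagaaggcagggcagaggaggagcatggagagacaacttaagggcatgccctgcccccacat
Cyp2b10: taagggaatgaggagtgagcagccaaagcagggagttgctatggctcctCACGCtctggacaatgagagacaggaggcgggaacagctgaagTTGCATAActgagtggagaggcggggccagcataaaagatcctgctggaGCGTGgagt
Cyp2a5: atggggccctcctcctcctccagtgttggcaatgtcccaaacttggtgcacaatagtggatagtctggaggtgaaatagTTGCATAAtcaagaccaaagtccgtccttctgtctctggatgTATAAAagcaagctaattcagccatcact
Cyp2a4: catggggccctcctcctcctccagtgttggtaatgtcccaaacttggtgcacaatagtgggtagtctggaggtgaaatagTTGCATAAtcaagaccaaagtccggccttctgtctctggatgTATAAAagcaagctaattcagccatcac
Cyp2s1: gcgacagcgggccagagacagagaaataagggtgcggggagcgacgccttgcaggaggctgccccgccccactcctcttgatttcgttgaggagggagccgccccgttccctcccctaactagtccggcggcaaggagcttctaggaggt
TTGCATAA stood before Cyp2a5, Cyp2a4 and Cyp2b10, and it was chosen for the search after the sequences of these genes had been seen. It occurs in 6 of the 83 windows that RefSeq gives for 73 of the P450 genes (the others being Cyp2b19, Cyp2b23 and Cyp4f14) and in 0.444% of all 32851 windows of this length, and the windows of near copies are not independent. Moved by 1 base against each other, the windows of Cyp2a4 and Cyp2a5 have 146 of 149 letters equal, whereas those of Cyp2f2 and Cyp2b10 have 51 of 150. TATAAA occurs in 26 of the 83 windows and in 7.57% of all windows, and TGTTTAC in 1 and in 1.80%. The windows of Cyp2f2 and Cyp2s1 hold none of the 4 motifs. No motif overlaps another in the windows printed.

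The airway P450 genes moved beside the summed level of the club cell markers (Scgb1a1, Scgb3a2, Scgb3a1, Bpifa1 and Muc5b). That sum was 363 to 943 CPM in QZ1-hi and 1501 to 3800 CPM in QZ1-lo, and most of it was Scgb1a1. Bpifa1 was not called, with 36.5 ± 8.10 CPM in QZ1-hi and 33.5 ± 10.4 CPM in QZ1-lo (SD, n = 4 each, log2 fold change 0.13). Scgb1a1, the main secretory protein of club cells, had 415 ± 254 CPM in QZ1-hi and 2160 ± 991 CPM in QZ1-lo (SD, n = 4 each), which is −2.38 on the log2 scale (SE 0.41, edgeR adjusted p = 0.00227). QZ1-hi library 2 had the highest level of its population for Scgb1a1 as for Cyp2f2, Cyp2b10, Cyp2a5, Cyp2a4 and Cyp2s1, and QZ1-lo library 1 had the lowest of its population for all 6 genes. The 5 ciliated markers shared this pattern in their summed level, at 58.6, 146, 123 and 86.2 CPM in QZ1-hi libraries 1 to 4. In QZ1-lo libraries 1 to 4 that level was 218, 375, 482 and 251 CPM. The counts of Cyp2f2 were 0.153 to 0.263 of those of Scgb1a1 in QZ1-hi and 0.132 to 0.179 in QZ1-lo. These ranges overlap only because QZ1-hi library 1 lay below QZ1-lo library 3. In bulk RNA of sorted cells, fewer club or other airway cells and less P450 RNA in each cell cannot be told apart.

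**Figure D3:**
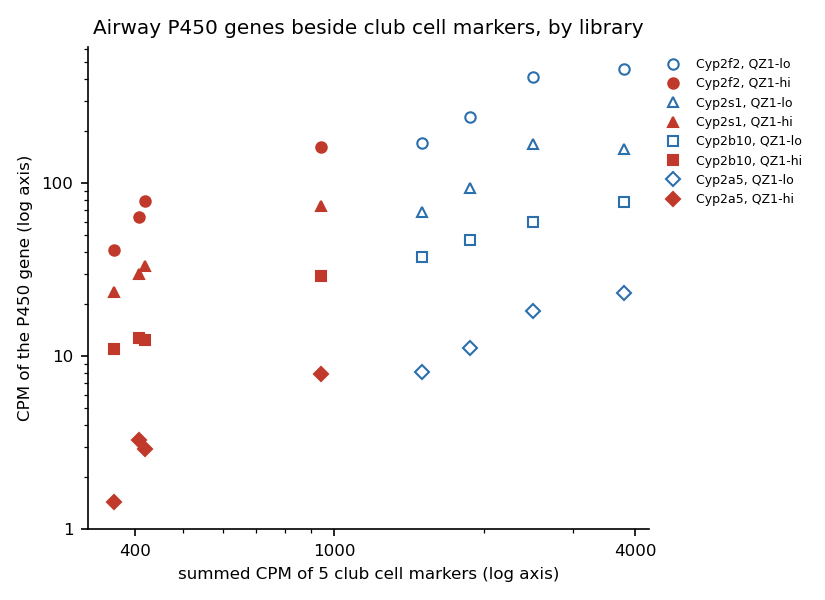
CPM of Cyp2f2, Cyp2s1, Cyp2b10 and Cyp2a5 (log axis) against the summed CPM of 5 club cell markers (log axis) in each library, QZ1-lo as open blue and QZ1-hi as filled red symbols. The QZ1-hi libraries lie at 363 to 943 CPM of the markers and the QZ1-lo libraries at 1501 to 3800 CPM.

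Within the whole family, the 8 libraries differed in which genes made up the P450 level. Per kilobase of exon, Cyp2f2 supplied 24.1% to 45.4% of the summed P450 level in the QZ1-hi libraries and 51.4% to 62.6% in the QZ1-lo libraries. Cyp2f2, Cyp2s1 and Cyp2b10 together supplied 33.4% to 61.8% and 70.8% to 81.6%, so the populations did not overlap in either share. The summed level of all P450 genes without Cyp2f2, in CPM, was 184 to 335 in QZ1-hi and 236 to 408 in QZ1-lo, ranges that do overlap. Such shares are linked, since a fall of 1 gene raises the share of the others.

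**Figure D4:**
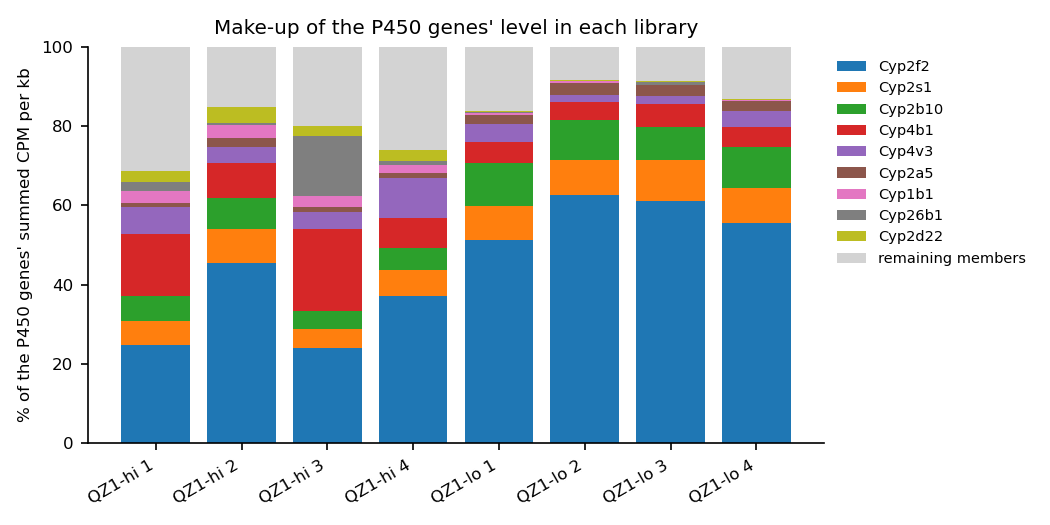
Share of the summed P450 level per kilobase of exon (%) taken in each library by 9 named genes, in colours, and by the remaining P450 genes, in light grey. Cyp2f2 takes 24.1% to 45.4% in the QZ1-hi libraries and 51.4% to 62.6% in the QZ1-lo libraries, and Cyp26b1 takes its largest share in QZ1-hi library 3.

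Ordered by level per kilobase over all libraries, Cyp2f2 (42.7 ± 26.2 CPM per kb in QZ1-hi and 158 ± 68.2 in QZ1-lo, SD, n = 4 each) was followed by Cyp2b10 (7.74 ± 4.09 and 26.2 ± 8.20) and Cyp2s1 (8.14 ± 4.68 and 24.8 ± 9.88), which lay within each other's spread. In QZ1-hi alone the gene after Cyp2f2 was Cyp4b1, at 15.9 ± 7.95 CPM per kb, beside 13.7 ± 4.8 in QZ1-lo (SD, n = 4 each). Cyp4b1, an abundant lung P450 that activates 4-ipomeanol and hydroxylates fatty acids, came next over all libraries and was not called. It measured 28.5, 36.0, 60.4 and 18.2 CPM in QZ1-hi and 19.5, 37.1, 42.7 and 24.2 CPM in QZ1-lo. The fitted difference was 0.21 on the log2 scale (SE 0.34, edgeR adjusted p = 0.749); the libraries overlapped and the direction turned under library-size scaling and without QZ1-hi library 3. Cyp4v3, a fatty acid omega-hydroxylase of many tissues, followed with 27.6 ± 8.62 CPM in QZ1-hi and 28.1 ± 4.49 CPM in QZ1-lo (SD, n = 4 each, edgeR adjusted p = 0.951).

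The Cyp4 genes, most of which hydroxylate the far end of fatty acids and leukotrienes, gave 2 lower calls and no higher call among 10 tested, beside 8.21% and 9.88% of all genes tested. Both came from the Cyp4f cluster of chromosome 17 (chr17:32452723-32947402, 8 genes, 6 tested). Cyp4f39 (Entrez Gene 320997, chr17:32452723-32493320, plus strand), which acts on the very long fatty acids of the skin barrier, measured 2.08, 1.28, 1.04 and 1.67 CPM in QZ1-hi and 6.08, 2.16, 4.05 and 5.57 CPM in QZ1-lo. QZ1-lo library 2 lay close to the QZ1-hi range and the other 3 well above it. The log2 fold change was −1.55 (SE 0.41, edgeR adjusted p = 0.0229), with adjusted p of 0.0540, 0.0570, 0.0803 and 0.0659 without QZ1-hi library 2, QZ1-hi library 3, QZ1-lo library 1 and QZ1-lo library 4, and 0.0779 in limma.

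Cyp4f17 (Entrez Gene 208285, chr17:32506050-32530143, plus strand) measured 2.08, 1.14, 2.43 and 3.10 CPM in QZ1-hi and 4.62, 5.17, 4.27 and 4.99 CPM in QZ1-lo. The QZ1-lo libraries were close together and clear of the QZ1-hi ones. The fitted difference was −1.13 on the log2 scale (SE 0.35, edgeR adjusted p = 0.0437). The call was lost when any library other than QZ1-hi library 4 was left out, at adjusted p of 0.0592 to 0.101. Its neighbours Cyp4f13 and Cyp4f16 lay within the replicate spread, at −0.03 (SE 0.27) and 0.19 (SE 0.24) on the log2 scale.

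Cyp4f18 (Entrez Gene 72054, chromosome 8), a leukotriene B4 hydroxylase of myeloid cells, measured 3.60, 3.65, 3.70 and 10.5 CPM in QZ1-hi and 10.5, 11.4, 8.47 and 9.86 CPM in QZ1-lo. QZ1-hi library 4 reached the QZ1-lo range while the other 3 lay far below it. The gene was not called (log2 fold change −0.91, SE 0.35, edgeR adjusted p = 0.105), and without that library the adjusted p was 0.00225. QZ1-hi library 4 also had the highest summed level of the 6 immune markers, at 536 CPM beside 265 to 298 CPM in the other QZ1-hi libraries. The QZ1-lo libraries 1 to 4 had 289, 301, 219 and 408 CPM of these markers, with Cyp4f18 at 8.47 CPM or more in each. The part of immune cells in the level of Cyp4f18 was not tested.

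Among the genes higher in QZ1-hi, Cyp2d22 (Entrez Gene 56448, chr15:82370527-82380260, minus strand) was the one whose call held under all 17 alternatives. It is the mouse Cyp2d gene most often compared with the human drug-metabolizing CYP2D6. It measured 8.64, 27.5, 13.6 and 12.0 CPM in QZ1-hi and 1.64, 3.95, 4.70 and 0.737 CPM in QZ1-lo. All QZ1-hi libraries lay above all QZ1-lo libraries. The fitted level was 5.60-fold higher in QZ1-hi (log2 fold change 2.49, SE 0.53, edgeR adjusted p = 0.00746). The other 7 genes of its cluster on chromosome 15 had at most 8 counts over a population, and Cyp2d12 had none. Cyp2d13, which was found under that name in no GENCODE M21 locus, was left out of the clusters and the levels per kilobase. It had 0, 12, 1 and 2 counts in QZ1-hi and 1, 0, 0 and 0 in QZ1-lo.

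Cyp1b1 (Entrez Gene 13078, chr17:79701537-79715061, minus strand), which oxidizes polycyclic aromatic hydrocarbons and estrogens and is typical of mesenchymal cells, measured 15.2, 33.5, 22.1 and 12.6 CPM in QZ1-hi and 4.53, 11.1, 2.75 and 1.84 CPM in QZ1-lo. The lowest QZ1-hi library was only just above the highest QZ1-lo library. The fit gave a log2 fold change of 2.05 (SE 0.51, edgeR adjusted p = 0.0163), and without QZ1-hi library 2 the adjusted p was 0.0514. The summed fibroblast markers (Col1a1, Col1a2, Pdgfra, Dcn and Lum) were 918 to 1843 CPM in QZ1-hi and 26.6 to 217 CPM in QZ1-lo. In the same order, the endothelial markers were 825 to 1949 CPM and 60.1 to 255 CPM. The mesothelial markers were 29.7 to 208 CPM and 5.44 to 27.5 CPM, and the pericyte markers 39.0 to 62.6 CPM and 7.65 to 24.5 CPM. The smooth muscle markers were 22.5 to 33.3 CPM and 9.90 to 21.1 CPM. The part of these cell types in the higher P450 genes was not tested.

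Cyp1a1, the classical target of the aryl hydrocarbon receptor, stayed under the filter. It had 16, 3, 15 and 4 counts in the QZ1-hi libraries and 0, 1, 0 and 0 in the QZ1-lo libraries. The summed ratio, scaled for library size after TMM, was 53.7 with a 95% exact counting interval of 9.08 to 2178, which does not include the spread between libraries. The test without a filter gave it an edgeR adjusted p of 0.0579. Cyp1a2, the liver member of the family, had no count in any library.

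The windows before the 2 counted Cyp1 genes are shown for the receptor core GCGTG, with capitals as above. They lie at chr9:57697463-57697612 (plus strand) for Cyp1a1 and chr17:79715062-79715211 (minus strand) for Cyp1b1. Whether the receptor acts through the copies in these windows was not tested.
Cyp1a1: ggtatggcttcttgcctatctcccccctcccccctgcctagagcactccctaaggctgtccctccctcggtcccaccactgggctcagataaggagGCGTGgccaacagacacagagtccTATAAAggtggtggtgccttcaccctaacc
Cyp1b1: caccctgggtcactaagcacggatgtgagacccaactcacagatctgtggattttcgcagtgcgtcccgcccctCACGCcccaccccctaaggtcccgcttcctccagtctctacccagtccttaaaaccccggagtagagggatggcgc
Each window holds the core once, ending 50 bases before the start of Cyp1a1 on its own strand and 72 bases before the start of Cyp1b1 on the opposite strand. The core occurs in 12 of the 83 P450 windows and in 20.5% of all windows of this length. The receptor gene Ahr had 41.6 ± 7.15 CPM in QZ1-hi and 35.5 ± 3.73 CPM in QZ1-lo, and its target Tiparp 42.3 ± 8.24 and 44.5 ± 3.98 CPM (SD, n = 4 each, edgeR adjusted p = 0.345 and 0.808).

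A pair of genes of sterol side-chain and bile acid metabolism were higher in QZ1-hi. Cyp27a1 (Entrez Gene 104086, chr1:74713574-74737892, plus strand), the mitochondrial sterol 27-hydroxylase, measured 2.67, 3.66, 4.57 and 5.48 CPM in QZ1-hi and 0.805, 1.46, 0.217 and 1.39 CPM in QZ1-lo. All 4 QZ1-hi libraries were above the QZ1-lo range. The log2 fold change was 2.08 (SE 0.55, edgeR adjusted p = 0.0216), with adjusted p of 0.0599, 0.0601 and 0.0577 without QZ1-hi library 3, QZ1-hi library 4 and QZ1-lo library 1.

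Cyp7b1 (Entrez Gene 13123, chr3:18071950-18243338, minus strand), the oxysterol 7-alpha-hydroxylase, had 87, 51, 20 and 16 counts in QZ1-hi and 10, 12, 0 and 0 in QZ1-lo. In CPM these were 3.69, 2.52, 1.16 and 0.953 against 0.298, 0.488, 0 and 0. No library overlapped, although the values rest on few reads. On these counts the fitted log2 fold change was 3.37 (SE 1.06, edgeR adjusted p = 0.0487), and the call was lost when any library other than QZ1-lo library 2 was left out, at adjusted p of 0.0567 to 0.145.

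Their partner in bile acid synthesis, Cyp8b1, was under the filter, with 48, 14, 37 and 7 counts in QZ1-hi and 0, 0, 1 and 6 in QZ1-lo. The scaled ratio of the sums was 21.4 (95% exact counting interval 10.04 to 54.6, without the spread between libraries). Without a filter the gene was called (edgeR adjusted p = 0.0369). Such ratios were computed only for Cyp1a1, Cyp8b1, Cyp2c68 and Cyp2d13, which all had more counts in QZ1-hi. Cyp7a1, which opens the classical liver pathway, had 7 counts in a single QZ1-lo library and none elsewhere. Cyp39a1, a 24-hydroxycholesterol hydroxylase, was not called, with 4.28 ± 1.23 CPM in QZ1-hi and 7.91 ± 3.41 CPM in QZ1-lo (SD, n = 4 each, edgeR adjusted p = 0.0952). Of 4 hepatocyte markers, Apoc3 was at 0 in all libraries, and their summed level was 0.889 to 3.18 CPM in QZ1-hi and 0.285 to 2.21 CPM in QZ1-lo.

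Cyp2j9 (Entrez Gene 74519, chr4:96568429-96591578, minus strand), a P450 of the brain that hydroxylates arachidonic acid, measured 2.12, 1.98, 4.80 and 2.32 CPM in QZ1-hi and 0.0298, 0.814, 0.724 and 0.286 CPM in QZ1-lo. QZ1-hi library 3 stood above the rest of its population, and no QZ1-lo library reached QZ1-hi. QZ1-hi was higher by 2.60 on the log2 scale (SE 0.77, edgeR adjusted p = 0.0371). The call was lost without any 1 of the 4 QZ1-hi libraries or without QZ1-lo library 4, at adjusted p of 0.0549 to 0.128. Its relative Cyp2j6 had 4.74 ± 2.21 CPM in QZ1-hi and 3.38 ± 0.754 CPM in QZ1-lo (SD, n = 4 each) and was not called (edgeR adjusted p = 0.442).

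Cyp20a1 (Entrez Gene 77951, chr1:60343323-60388060, plus strand), a P450 with no settled substrate, showed the smallest called difference and the tightest libraries. It measured 12.9, 13.5, 10.9 and 11.3 CPM in QZ1-hi and 7.42, 6.92, 7.24 and 5.85 CPM in QZ1-lo. The gap between the populations was larger than the spread within either. The log2 fold change was 0.82 (SE 0.18, edgeR adjusted p = 0.00803). Scaling by library size alone lowered it to 0.36 (adjusted p = 0.407).

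Cyp26b1 (Entrez Gene 232174, chr6:84571414-84593908, minus strand), which degrades retinoic acid, had 1 library far above the others in each population. It measured 9.28, 5.04, 104 and 4.95 CPM in QZ1-hi and 1.04, 0.692, 10.4 and 1.64 CPM in QZ1-lo. These were QZ1-hi library 3 and QZ1-lo library 3, and the latter exceeded 3 of the 4 QZ1-hi libraries. The log2 fold change of 3.16 (SE 1.14) was not called (edgeR adjusted p = 0.0825), without QZ1-lo library 3 it was 4.77 with an adjusted p of 0.0228, and without QZ1-hi library 3 it was 0.89 with an adjusted p of 0.551. Its relatives Cyp26a1 and Cyp26c1 had 0 and 3 counts over the QZ1-hi libraries and 13 and 12 over the QZ1-lo libraries, the 13 in a single library.

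**Figure D5:**
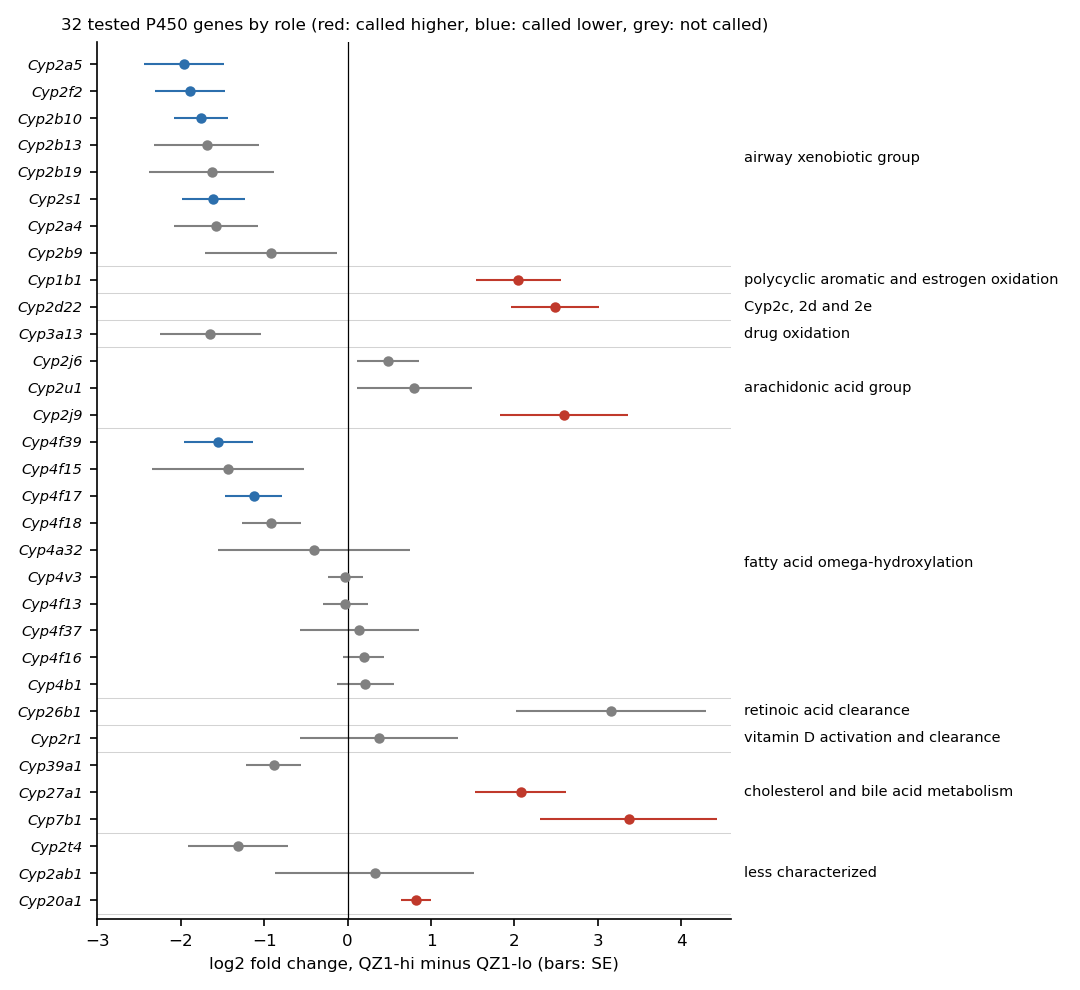
Log2 fold changes, QZ1-hi minus QZ1-lo, with SE, of the 32 tested P450 genes grouped by role, those called higher in red, those called lower in blue and the rest in grey. All 8 tested genes of the airway xenobiotic group lie below 0, from −1.96 to −0.92, and the 6 genes called higher come from 5 other groups.

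The remaining families were low or absent. Cyp3a13, of the drug-oxidizing Cyp3a family, had 1.36, 0.840, 0.289 and 0.238 CPM in QZ1-hi and 1.85, 2.60, 2.28 and 1.96 CPM in QZ1-lo, which do not overlap. It was not called (log2 fold change −1.65, SE 0.61, edgeR adjusted p = 0.0895), and the adjusted p was 0.0281 with DESeq2, 0.0406 with library-size scaling and 0.0415 without QZ1-hi library 1. The liver genes Cyp3a11, Cyp3a16 and Cyp3a44 had no count, nor did 9 Cyp2c genes, the adrenal genes Cyp11b1 and Cyp11b2, or Cyp24a1, which clears vitamin D.

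The Cyp2c genes that were counted included Cyp2c68, with 25, 32, 8 and 1 counts in QZ1-hi and 6, 0, 0 and 0 in QZ1-lo. Those populations overlap by 1 library. Cyp2c40, Cyp2c67, Cyp2c68 and Cyp2c69 share between 43.3% and 60.3% of their exonic stretches of 50 bases with other genes, so their counts are uncertain. The steroid synthesis genes Cyp11a1, Cyp17a1 and Cyp19a1 were at 5 or fewer counts over a population. Cyp21a1 had 41 and 91 counts, 79 of them in QZ1-lo library 3, and overlaps the antisense gene Tnxa.

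Of 9 partners that pass electrons to P450 enzymes, 1 was higher in QZ1-hi and 1 was lower, beside 9.88% and 8.21% of all genes tested. Por, the reductase that serves nearly all P450 enzymes of the endoplasmic reticulum, had 99.8 ± 27.1 CPM in QZ1-hi and 147 ± 23.4 CPM in QZ1-lo (SD, n = 4 each), which is −0.55 on the log2 scale (SE 0.19, edgeR adjusted p = 0.0620), and without QZ1-hi library 2 the adjusted p was 0.00533. Cyb5r3, a cytochrome b5 reductase, was higher, by 0.77 on the log2 scale (SE 0.15, edgeR adjusted p = 0.00403), and Fdx1, the mitochondrial ferredoxin, was lower, with a log2 fold change of −0.80 (SE 0.25, edgeR adjusted p = 0.0479). The call on Fdx1 was kept only without QZ1-hi library 3 or QZ1-lo library 2, and elsewhere its adjusted p was 0.0630 to 0.151.

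None of 10 heme genes was called, the rate-limiting Alas1 having 163 ± 35.0 CPM in QZ1-hi and 218 ± 20.8 CPM in QZ1-lo (SD, n = 4 each, edgeR adjusted p = 0.0923, or 0.0298 without QZ1-hi library 4). None of 12 tested receptors and regulators of 17 listed was called, and Nr1i2 and Nr1i3, the xenobiotic receptors of liver, did not pass the filter. Of 3 P450 genes with other names, only Ptgis, the prostacyclin synthase of vessels, was called, with 22.4 ± 13.4 CPM in QZ1-hi and 3.12 ± 2.17 CPM in QZ1-lo (SD, n = 4 each, edgeR adjusted p = 0.00618).

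Of 23 companion detoxification enzymes, 4 were higher in QZ1-hi (Adh1, Fmo1, Fmo2 and Sult1a1) and 1 was lower (Ces1d). Of all genes tested, 9.88% were higher and 8.21% lower. The call on Sult1a1 was lost without QZ1-hi library 3 (adjusted p = 0.0761), and that on Ces1d was kept only without QZ1-hi library 2 or QZ1-lo library 1 (adjusted p of 0.0548 to 0.127 without each of the others). The flavin monooxygenase Fmo2, which oxidizes many of the same compounds as P450 enzymes, had 59.8 ± 12.4 CPM in QZ1-hi and 15.3 ± 3.75 CPM in QZ1-lo (SD, n = 4 each, log2 fold change 1.97, SE 0.21, edgeR adjusted p = 0.000278). The medians of the partner, regulator, heme and detoxification lists were 0.05, 0.18, −0.02 and 0.39 on the log2 scale, beside 0.02 for all genes tested.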

How the data were processed

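SMARTer stranded total RNA libraries were read on a NextSeq500 by the authors, who assigned reads to genes with Rsubread and tested them with DESeq2. The deposited table holds raw counts, not normalized, for 27179 Entrez Gene identifiers. The labels name the build mm10, and the aligner, the annotation and the strand setting are not given in the sources used here.

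Symbols came from RefSeq (GRCm38.p6) for 25275 rows and from GENCODE M21 for 18, and 1886 rows had none. Loci, exon lengths and shared stretches were taken from GENCODE M21. In edgeR 4.0.16 under R 4.3.3, counts were scaled by TMM, filtered with filterByExpr (minimum count 10, minimum total 15) and tested by quasi-likelihood between the populations, with Benjamini-Hochberg adjustment over 15583 genes and a threshold of 0.05. SEs were computed from the log2 fold change and its F statistic. For single genes, all 70 assignments of the libraries were enumerated in a permutation test, two-sided and exact. The procedure was tested on simulated data. The 17 alternatives comprised DESeq2 1.42.0, limma 3.58.1, other scalings and filters, a threshold of 0.01 and the omission of each library.

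The P450 genes named are those called, the 10 most abundant per kilobase of exon and others with counts. Of the lists, those called, those most abundant and a few chosen after their values were seen (Por, Ahr, Tiparp, Nr1i2, Nr1i3, Alas1, Apoc3) are named. The P450 genes and the lists were chosen with earlier results of these data known.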

Additional observations from a re-analysis of the deposited data

Results flagged for a closer look

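In each population of 4 libraries, the gap between the highest or lowest library and its nearest neighbour was divided by the range of the 4, for the 32 tested P450 genes. Of the 64 groups, 5 had a ratio above Dixon's 95% critical value for 4 samples, and chance alone flags about 1 in 20 groups.

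Cyp26b1 stood out in both populations. QZ1-hi library 3 had 104 CPM beside 4.95 to 9.28 CPM in the other QZ1-hi libraries, a ratio of 0.956, and QZ1-lo library 3 had 10.4 CPM beside 0.692 to 1.64 CPM, a ratio of 0.903. Whether these libraries come from the same animal is not given in the labels.

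Cyp2b10 had a ratio of 0.904 in QZ1-hi, from library 2 at 29.2 CPM beside 11.0 to 12.7 CPM. Cyp2j9 had a ratio of 0.877 in QZ1-hi, from library 3 at 4.80 CPM beside 1.98 to 2.32 CPM. Cyp4f18 had a ratio of 0.986 in QZ1-hi, from library 4 at 10.5 CPM beside 3.60 to 3.70 CPM.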

How the results depend on the processing

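No paired analysis was possible because the labels carry no replicate numbers or animals that would link a QZ1-hi to a QZ1-lo library. Of 17 alternatives, 13 left the number of P450 genes called higher (6) and 15 the number called lower (6) within 1.5 times. The exceptions were 11 lower genes with scaling by library size only, 3 higher genes when at least 10 counts were required in every library (18 genes tested, 8 without overlap in place of 15), and 2 higher and 2 lower genes at an adjusted p under 0.01. Without single libraries the counts were 3 to 6 higher and 4 to 7 lower, lowest for the higher genes without QZ1-hi library 2 or 3. Cyp26b1 became called with scaling by library size (adjusted p = 0.0182), and Cyp4f17 lost its call with no filter (adjusted p = 0.0577). The cause was not tested for these.

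Pathway genes called lower, 2 in all, numbered 6 with DESeq2, 1 with limma, 7 with library size only, 0 at an adjusted p under 0.01 and 0 to 4 without single libraries, with 0 without QZ1-hi library 1, QZ1-lo library 3 or QZ1-lo library 4, 1 without QZ1-hi library 3, QZ1-hi library 4, QZ1-lo library 1 or QZ1-lo library 2, and 4 without QZ1-hi library 2.

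Of the single genes, 8 uncalled ones turned direction in some setting, never with a call. With library size only, the log2 fold change of Cyp2ab1 was −0.22, of Cyp2r1 −0.23, of Cyp4b1 −0.19, of Cyp4f16 −0.28 and of Cyp4f37 −0.27. With limma, that of Cyp4a32 was 1.12 and of Cyp4f37 −0.10. With single libraries left out, the log2 fold change ran from −0.74 to 1.16 for Cyp2ab1, from −0.63 to 0.91 for Cyp2r1, from −0.81 to 0.59 for Cyp4a32, from −0.18 to 0.47 for Cyp4b1, from −0.12 to 0.12 for Cyp4f13, from −0.44 to 0.40 for Cyp4f37 and from −0.23 to 0.079 for Cyp4v3. The 62 genes that did not pass the filter, 23 of them without a count, were not tested in the main comparison.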
